A study of Mus musculus with 4 samples.

Results

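The Bcl2 family and its downstream effectors were examined in sorted cells of the *Prdm13* lineage, with the question whether loss of PRDM13 left a sign of cell death in the RNA. The group holds 9 genes, found by their symbols among the 24421 genes of the deposited table: *Bcl2*, *Bcl2l1*, *Mcl1*, *Bax*, *Bak1*, *Bbc3*, *Pmaip1*, *Bcl2l11* and *Apaf1*. Of the 9, 8 had a mean of at least 1 RPKM (reads on a gene's exons, scaled to exon length and library size) in either genotype and were tested, and *Pmaip1* did not reach that level. In short, all 9 were detected, *Bax* and *Bcl2l1* were modestly higher in the mutant pool, and 0 of the 8 genes tested differed by as much as 1.5-fold. *Pmaip1* was higher in the mutant pool too, on 3 to 14 reads per library.

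GFP+ cells, in which the *Prdm13* locus drives or has driven GFP, had been sorted from trypsin-treated mouse neural tubes at E11.5. Control embryos were *Prdm13* GFP/+ and mutant embryos *Prdm13* GFP/GFP, so both carry the GFP knock-in that disrupts PRDM13, on 1 or on both alleles, and no wild-type embryos were compared. RNA of 7 GFP/+ embryos made 1 pool and RNA of 9 GFP/GFP embryos another, and each pool gave 2 libraries. These are technical replicates (n = 2 throughout), so neither the standard deviations (SD) nor the p-values include differences between embryos. Depth, recovered from the RPKM values, was 11717824 to 18638237 reads on genes. *Prdm13* itself stood at 114 and 127 RPKM in GFP/+ and at 310 and 324 RPKM in GFP/GFP. Its reads include the disrupted transcript and do not report functional PRDM13. The cells carried progenitor and neuronal markers: *Vim* lay at 932 ± 0.148 and 967 ± 27.9 RPKM and *Tubb3* at 1040 ± 32.3 and 1318 ± 75.6 RPKM in GFP/+ and GFP/GFP. Markers of phagocytes, the cells that clear dying neighbours, summed over 8 genes to 6 to 20 reads per library. Because the sort kept GFP+ cells, this count describes the purity of the sort and cannot speak to cell death.

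Cell death through mitochondria is set by a balance inside one protein family. Survival members (BCL2, BCL-XL from *Bcl2l1*, MCL1) hold the effectors BAX and BAK in check, BH3-only members (PUMA from *Bbc3*, NOXA from *Pmaip1*, BIM from *Bcl2l11*) release them, and cytochrome c that then leaves mitochondria assembles with APAF1 into the apoptosome, which activates caspases. In the developing nervous system this route removes surplus and damaged cells, and loss of *Apaf1* or of *Bcl2l1* in mice is known to disturb neural cell number. Much of the control is exerted on the proteins rather than on their RNA.

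Promoter stretches are shown for the windows that held a searched motif, the p53 decamer or the E-box CAGATG. The decamer was searched because the p53 protein is a textbook activator of *Bax*. E-boxes were searched because they are the sites of neural bHLH factors, with which PRDM13 is proposed to act. RefSeq starts (GRCm38.p6) were at hand for 8 of the 9 genes, in 13 windows of 250 bases before a start. Both strands were searched for the p53 decamer, allowing no mismatch, and for 1 form of E-box, CAGATG. Other forms were not searched, such as the cacgtg near the end of the *Bax* stretch below. The decamer was found in 1 of the 13 windows, that of *Bax*, starting 201 bases before the start, and in 7.13% of all 32851 windows. CAGATG was found in 1 of the 13, a window of *Bcl2l1* that precedes an internal start within the annotated gene, and in 14.4% of all windows. The stretches below are from the minus strand, 5′ to 3′, ending at the base before the start, and capitals mark the p53 decamer in *Bax* (chr7:45466899-45467148) and the E-box in *Bcl2l1* (chr2:152831729-152831978).
*Bax*: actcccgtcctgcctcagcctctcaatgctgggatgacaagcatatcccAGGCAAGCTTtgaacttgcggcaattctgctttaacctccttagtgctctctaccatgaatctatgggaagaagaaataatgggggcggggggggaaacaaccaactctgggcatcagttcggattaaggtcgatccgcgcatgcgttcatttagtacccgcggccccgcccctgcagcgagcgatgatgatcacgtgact
*Bcl2l1*: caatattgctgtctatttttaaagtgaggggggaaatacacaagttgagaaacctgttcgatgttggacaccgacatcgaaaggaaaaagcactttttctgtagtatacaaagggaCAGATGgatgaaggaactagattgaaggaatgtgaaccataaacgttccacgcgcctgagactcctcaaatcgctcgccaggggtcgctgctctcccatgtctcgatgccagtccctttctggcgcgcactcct
A match of letters is a description and does not show that a factor binds there.

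The levels kept 1 order in every library. *Bax* was the most abundant, followed by *Mcl1*, *Bcl2l1*, *Bak1*, *Apaf1*, *Bbc3*, *Bcl2l11*, *Bcl2* and *Pmaip1*, and over the 4 libraries the values of neighbours in this order did not overlap. The closest neighbours were *Apaf1* and *Bbc3* in GFP/GFP, at 9.06 ± 0.0477 and 8.46 ± 0.482 RPKM, which differ by little more than the SD of *Bbc3*. By mean RPKM, *Bax* ranked at percentile 92.9 and *Mcl1* at 90.2 of the 12046 genes tested, whereas *Bcl2* ranked at 8.99. Within the 9 genes, the survival side thus consisted at the RNA level mainly of *Mcl1* and *Bcl2l1*.

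**Figure D1:**
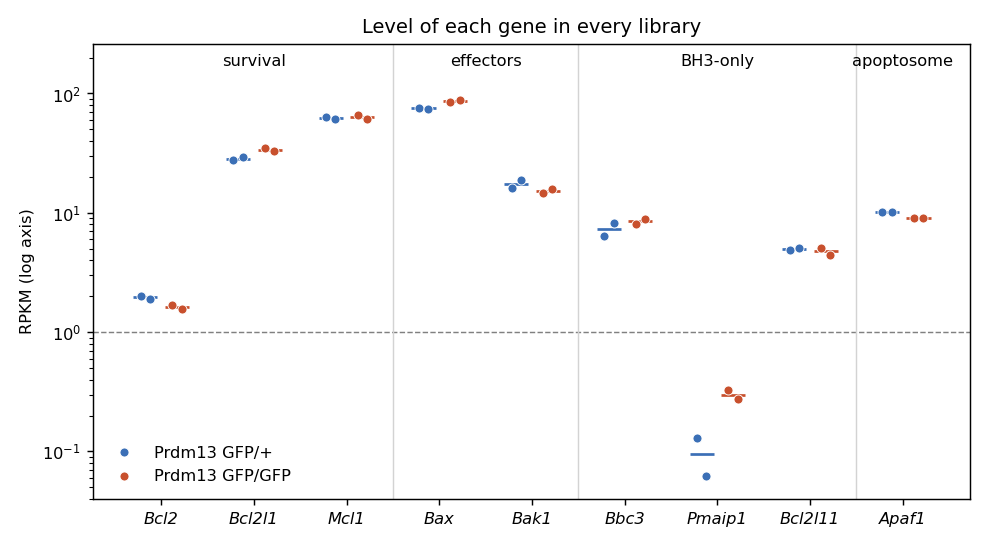
RPKM (log axis) of the 9 genes in the 2 GFP/+ libraries (blue) and the 2 GFP/GFP libraries (red). Each point is a library, short lines are means of the 2 libraries of a pool, and the dashed line is the filter of 1 RPKM, under which *Pmaip1* alone lies.

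Genes were compared with limma on log2(RPKM + 0.1), two-sided, with Benjamini-Hochberg adjustment over all 12046 genes tested. On this scale 2 of the 8 genes tested had an adjusted p under 0.05, both higher in GFP/GFP and 0 lower, against 19.7% of all genes tested, 9.76% higher and 9.95% lower. Here 25% of the genes passed, close to the background share. With a fold of at least 1.5 as a second condition, 0 of the 8 passed by limma on RPKM and 0 by limma voom on recovered reads (6.32% of all genes tested by limma on RPKM). At an unadjusted p under 0.05 there were 4 (*Bcl2l1*, *Bax*, *Bak1* and *Apaf1*), against 34.1% of all genes, and 0 of these 4 reached 1.5-fold. The libraries of the genotypes did not overlap for 5 of the 8 genes, against 62.1% of all genes. The median log2 fold change of the 8 was -0.015, with 4 higher and 4 lower, beside 0.010 over all genes tested.

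Among the survival genes, *Bcl2l1* rose and *Bcl2* and *Mcl1* did not pass the test. *Bcl2l1* (gene ID 12048, chromosome 2 from 152758732 to 152833803 of GRCm38) encodes BCL-XL, the main guardian of newly born neurons. It had 27.8 and 29.2 RPKM in GFP/+ and 34.6 and 32.7 RPKM in GFP/GFP, from 1027, 1710, 1798 and 1430 reads. Both mutant libraries lay above both controls. The mean was 1.18-fold higher, that is by 0.24 on the log2 scale (SE, the standard error, 0.0563, adjusted p = 0.0296), with a 95% interval of the fold from 1.08 to 1.30. Gene-level counts do not separate its long, protective splice form from the short one that promotes death.

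*Bcl2* (gene ID 12043, chromosome 1 from 106538176 to 106714290), the founding member of the family, was low throughout, at 2.00 and 1.90 RPKM in GFP/+ and 1.69 and 1.57 RPKM in GFP/GFP. Both mutant libraries were below both controls. The log2 fold change was -0.25 (SE 0.147, adjusted p = 0.290), with an interval of the fold from 0.661 to 1.08. These values rested on 166 to 270 reads per library. *Mcl1* (gene ID 17210, chromosome 3 from 95656944 to 95663179) encodes a survival protein with a very short life, which neural progenitors need. Its values were 63.1 and 61.6 RPKM in GFP/+ and 65.7 and 61.5 RPKM in GFP/GFP, from 2546, 3935, 3722 and 2933 reads. The genotypes overlapped, the lowest and the highest value both being mutant. The log2 fold change was 0.028 (SE 0.0518, adjusted p = 0.743) and the interval of the fold ran from 0.935 to 1.11.

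The effectors, which open the outer mitochondrial membrane, differed in direction. *Bax* (gene ID 12028, chromosome 7 from 45461695 to 45466903) had 75.7 and 74.4 RPKM in GFP/+ and 84.4 and 88.1 RPKM in GFP/GFP, from 761, 1185, 1192 and 1047 reads. The GFP/GFP libraries were both above the GFP/+ libraries. The mean was 1.15-fold higher, with a log2 fold change of 0.20 (SE 0.0465, adjusted p = 0.0288) and an interval of the fold from 1.06 to 1.24. *Bak1* (gene ID 12018, chromosome 17 from 27019812 to 27028627) had 16.3 and 18.8 RPKM in GFP/+ and 14.6 and 15.8 RPKM in GFP/GFP, from 377, 691, 475 and 432 reads. Its mutant libraries were both below the controls, but the controls lay farther apart from each other than the means of the genotypes (17.6 ± 1.81 and 15.2 ± 0.836 RPKM). The log2 fold change of -0.21 (SE 0.0842, adjusted p = 0.141) did not pass, while limma voom on recovered reads, by which 27% of the 12046 genes passed, gave -0.23 and an adjusted p = 0.0497. That call was lost in the voom fit of genes with at least 10 reads in all (adjusted p = 0.0611). By limma on RPKM, the log2 fold change of *Bak1* was -0.31 without the first GFP/+ library and -0.10 without the second. In GENCODE, up to 257 bases of a *Bak1* exon lie opposite an exon of *Ggnbp1* (1.21 to 1.89 RPKM), 497 bases of *Bcl2* lie opposite D630008O14Rik, and 140 bases of *Bax* are shared with Gm45808 on the same strand. Whether the counting used strand is not given in the sources used here, so these genes may share reads.

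The calls of *Bax* and *Bcl2l1* each needed all 4 libraries. With any 1 library left out, the log2 fold change stayed between 0.17 and 0.23 for *Bax* and between 0.20 and 0.28 for *Bcl2l1*, and the adjusted p rose to 0.0813 to 0.169 and to 0.0789 to 0.149. In bulk RNA, a different share of a cell type and a different level per cell cannot be told apart. Of 7 neuronal markers, 4 (*Tubb3*, *Elavl3*, *Elavl4*, *Stmn2*) were higher and *Snap25* lower, while *Map2* (log2 fold change -0.16, adjusted p = 0.0938) and *Dcx* (-0.072, adjusted p = 0.360) did not pass. Their summed level, most of it *Tubb3*, was 1651 to 1697 RPKM in GFP/+ and 2010 to 2091 RPKM in GFP/GFP. The 6 progenitor markers summed to 2070 to 2104 and 2077 to 2151 RPKM, with *Hes5* and *Notch1* higher and *Sox2* lower. Erythroid markers, of interest because red cell precursors depend on BCL-XL, summed to 24.2 to 26.7 and 27.3 to 29.0 RPKM, nearly all of it *Hbb-y* (adjusted p = 0.182), with *Hba-a1*, *Hba-a2* and *Hbb-bt* listed at 0. The part of these markers in the differences was not tested.

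**Figure D2:**
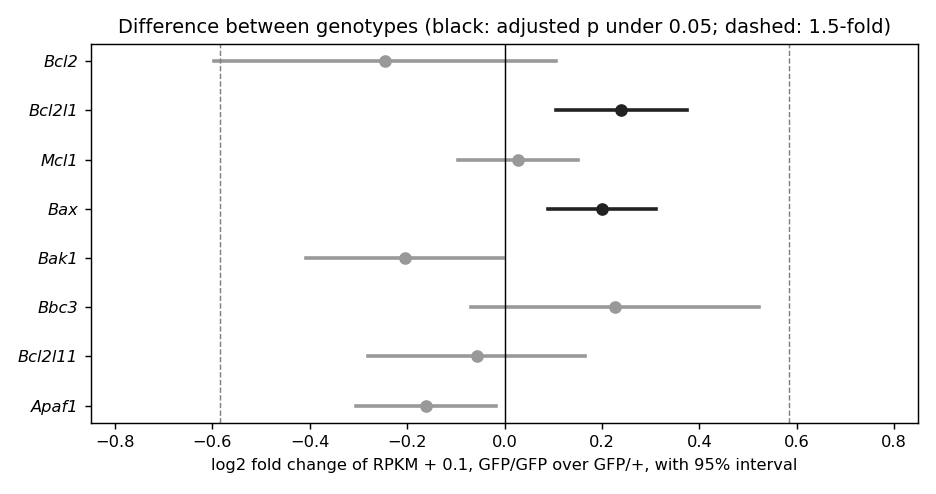
Log2 fold change of RPKM + 0.1 in GFP/GFP over GFP/+ (points) with its 95% interval (bars) for the 8 genes tested by limma; dashed lines mark 1.5-fold. *Bax* and *Bcl2l1*, in black, have an adjusted p under 0.05, and every point estimate lies between -0.25 and 0.24.

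BH3-only genes carry death signals to the family and are the members most often switched at the RNA level. *Bbc3* (gene ID 170770, chromosome 7 from 16308398 to 16318334), the PUMA gene and a classic p53 target, had 6.34 and 8.20 RPKM in GFP/+ and 8.12 and 8.81 RPKM in GFP/GFP, from 145, 297, 261 and 238 reads. The first control library was the low one and the genotypes overlapped. The log2 fold change was 0.23 (SE 0.124, adjusted p = 0.250), and it was 0.044 without the first GFP/+ library and 0.41 without the second. *Bcl2l11* (gene ID 12125, chromosome 2 from 128126038 to 128162547), the BIM gene, which neurons induce when deprived of trophic factors, had 4.84 and 5.05 RPKM in GFP/+ and 5.06 and 4.47 RPKM in GFP/GFP, from 400, 661, 587 and 436 reads. Its values overlapped, with a log2 fold change of -0.057 (SE 0.0929, adjusted p = 0.707) and an interval of the fold from 0.824 to 1.12.

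*Pmaip1* (gene ID 58801), the NOXA gene and another p53 target, was close to the limit of detection of 3 reads per library. It had 4 and 3 reads in GFP/+ and 14 and 10 reads in GFP/GFP, which are 0.130, 0.0617, 0.324 and 0.275 RPKM. All mutant values were above all control values. Relative to library size, the reads were 3.42 times as frequent in GFP/GFP, with an exact conditional 95% interval from 1.43 to 9.41 that covers counting error only. The gene was not tested under the filter of 1 RPKM. With every gene of the table tested by limma on log2(RPKM + 0.1) its log2 fold change was 1.05 (adjusted p = 0.217). By limma voom on recovered reads of the 15198 genes with at least 10 reads in all, it was 1.69 (adjusted p = 0.0317), in a test that 21.9% of those genes passed. Even the mutant level of 0.300 ± 0.0346 RPKM was the lowest among the 9 genes.

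*Apaf1* (gene ID 11783, chromosome 10 from 90989311 to 91082743), the scaffold of the apoptosome, had 10.2 and 10.1 RPKM in GFP/+ and 9.10 and 9.03 RPKM in GFP/GFP, from 776, 1210, 970 and 810 reads. The libraries of each pool were nearly alike and the genotypes did not overlap. The log2 fold change of -0.16 (SE 0.0599) had an adjusted p = 0.112, with an interval of the fold from 0.810 to 0.988.

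Summed by role, the survival genes gave 92.9 and 92.7 RPKM in GFP/+ and 102 and 95.8 RPKM in GFP/GFP. The effectors gave 91.9, 93.3, 99.0 and 104 RPKM in the same order, and the BH3-only genes 11.3, 13.3, 13.5 and 13.5 RPKM. Survival and effector RNA were thus present in nearly equal amounts, with far less BH3-only RNA. Whether a ratio separated the genotypes depended on the pair of genes. *Bax* over *Bcl2* was 37.9 and 39.1 in GFP/+ and 49.8 and 56.2 in GFP/GFP, and the genotypes did not overlap. *Bcl2l1* over *Bcl2* was 13.9 and 15.3 in GFP/+ and 20.4 and 20.9 in GFP/GFP. *Bax* over *Bcl2l1*, a far more abundant survival gene than *Bcl2*, was 2.72 and 2.55 in GFP/+ and 2.44 and 2.69 in GFP/GFP and overlapped. The summed effectors (*Bax*, *Bak1*) over the summed survival genes were 0.990 and 1.01 in GFP/+ and 0.971 and 1.08 in GFP/GFP. For the summed BH3-only genes over the same survival genes the values were 0.122, 0.144, 0.132 and 0.141. These ratios of RPKM are descriptions and were not tested.

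**Figure D3:**
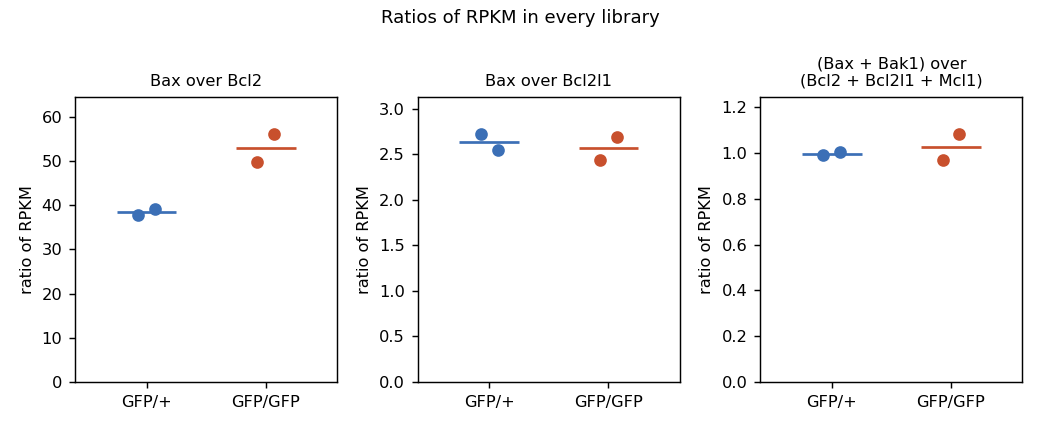
Ratio of RPKM in each library (points) and its mean per pool (lines), on axes from 0, for *Bax* over *Bcl2*, *Bax* over *Bcl2l1* and the summed effectors over the summed survival genes. The genotypes separate for *Bax* over *Bcl2* (37.9 and 39.1 against 49.8 and 56.2) and overlap in the other panels.

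The rest of the pathway was taken from 6 lists of 85 genes, of which 63 were tested. Of these, 16 were called at an adjusted p under 0.05, 8 higher and 8 lower (25.4%, beside 19.7% of all genes tested), and 5 also passed 1.5-fold. Their median log2 fold change was 0.036. The same 19.7% is the background for the count of each list below. All 16 kept their direction with each library left out, all 16 were called by limma voom on recovered reads, and 4 (*Bok*, *Casp6*, *Sesn2* and *Chac1*) were called with each library left out, while the rest lost the call in at least 1 of those fits.

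In the rest of the Bcl2 family, 1 of 8 genes tested was called, with a median of 0.13. This was *Bok*, an effector related to *Bax* and *Bak1*, with 7.30 and 6.21 RPKM in GFP/+ and 11.6 and 13.1 RPKM in GFP/GFP. The mutant libraries were clearly above the controls, 1.83-fold in mean RPKM (log2 fold change 0.87, SE 0.0995, adjusted p = 0.00230). Its log2 fold change was larger than that of each of the 8 genes above. *Bnip3l*, a mitophagy receptor and the most abundant of this list, was at 42.7 ± 2.63 and 43.8 ± 1.56 RPKM (adjusted p = 0.712).

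Of the 16 genes of the apoptosome and caspases, all tested, 1 was called and the median was 0.048. *Casp6*, an executioner caspase also known for axon pruning, had 11.8 and 11.6 RPKM in GFP/+ and 16.3 and 16.5 RPKM in GFP/GFP (log2 fold change 0.48, SE 0.0549, adjusted p = 0.00224). *Parp1*, a caspase substrate with the highest mean of the list over all 4 libraries, had 123 ± 2.18 and 120 ± 4.38 RPKM (adjusted p = 0.551).

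Inhibitors of apoptosis were called in 4 of 5 genes tested, 3 lower and 1 higher, with a median of -0.20. That is 80% of a short list, beside 19.7% of all genes tested. *Xiap*, which blocks caspases directly, had 13.2 and 12.3 RPKM in GFP/+ and 10.5 and 10.2 RPKM in GFP/GFP (log2 fold change -0.30, SE 0.0635, adjusted p = 0.0214). *Birc6*, a giant ubiquitin ligase, was lower by a log2 fold change of -0.27 (SE 0.0633, adjusted p = 0.0294). *Birc5*, better known as the mitotic protein survivin, changed by -0.20 (SE 0.0537, adjusted p = 0.0478). *Birc7* was higher by 1.30 (SE 0.247, adjusted p = 0.0146), from only 4, 9, 16 and 17 reads.

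p53 and its targets gave 4 calls among 17 genes tested, 2 in each direction, with a median of -0.056. *Trp53* was at 72.8 ± 1.09 and 70.0 ± 0.971 RPKM (adjusted p = 0.425). *Mdm2*, its inhibitor and target, had 33.5, 33.2, 35.5 and 33.5 RPKM (adjusted p = 0.565), and *Cdkn1a*, the p21 gene, was low at 1.45 to 1.76 RPKM (adjusted p = 0.414). *Btg2*, an antiproliferative gene also expressed by neurogenic progenitors, rose by 0.33 (SE 0.0471, adjusted p = 0.00512) and *Ei24* by 0.23 (SE 0.0484, adjusted p = 0.0219). *Plk2* was lower by -0.55 (SE 0.108, adjusted p = 0.0160). *Sesn2*, which also answers to amino acid shortage, had 12.1 and 11.7 RPKM in GFP/+ and 4.56 and 5.12 RPKM in GFP/GFP, a log2 fold change of -1.28 (SE 0.0795, adjusted p = 0.000177). *Mdm2* and *Cdkn1a* were named after their values were seen.

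The list of regulators upstream of the BH3-only genes also holds *Chac1*, which is an enzyme and not such a regulator. Of its 10 genes tested 5 were called, 2 higher and 3 lower, with *Chac1* among the lower. That is 50%, beside 19.7% of all genes tested, and the median was 0.044. *Map3k12*, the DLK kinase of the axonal stress response, rose by 0.41 (SE 0.0545, adjusted p = 0.00410), and *Mapk10*, the neuronal JNK gene, by 0.33 (SE 0.0604, adjusted p = 0.0123). The transcription factors *E2f1* and *Foxo3* were lower by -0.32 (SE 0.0509, adjusted p = 0.00824) and -0.35 (SE 0.0950, adjusted p = 0.0482). *Foxo1* went the other way, with 0.918 and 1.06 RPKM in GFP/+ and 1.58 and 1.51 RPKM in GFP/GFP. Its log2 fold change of 0.60 (SE 0.194) had an adjusted p = 0.0773 by limma on RPKM and 0.00332 by limma voom. *Foxo1* was named after its values were seen. *Chac1*, a glutathione-degrading enzyme of the ATF4 response, had 5.12 and 6.54 RPKM in GFP/+ and 0.588 and 0.885 RPKM in GFP/GFP (log2 fold change -2.84, SE 0.214, adjusted p = 0.000411). *Atf4* itself was at 140 ± 0.585 and 137 ± 0.750 RPKM (adjusted p = 0.696).

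Death receptor genes gave 1 call among 7 tested, with a median of 0.031. *Ngfr*, the p75 neurotrophin receptor, had 18.3 and 22.1 RPKM in GFP/+ and 29.4 and 32.5 RPKM in GFP/GFP (log2 fold change 0.62, SE 0.0983, adjusted p = 0.00788).

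Genes that respond to tissue dissociation were called in 3 of 9 tested (33.3%, beside 19.7% of all genes tested), all 3 lower in GFP/GFP. They were *Fos* by a log2 fold change of -0.59 (adjusted p = 0.0129), *Ier2* by -0.31 (adjusted p = 0.00685) and *Atf3* by -1.37 (adjusted p = 0.0183). Each of these calls was lost with some library left out. *Jund*, the most abundant of them, was at 134 ± 13.6 and 154 ± 10.8 RPKM (adjusted p = 0.128). Their part in the levels of the stress-related genes above was not tested. Endothelial markers summed to at most 2.90 RPKM in GFP/+ and 3.15 RPKM in GFP/GFP, and mesenchymal markers to 3.19 to 3.41 and 2.14 to 2.45 RPKM.

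**Figure D4:**
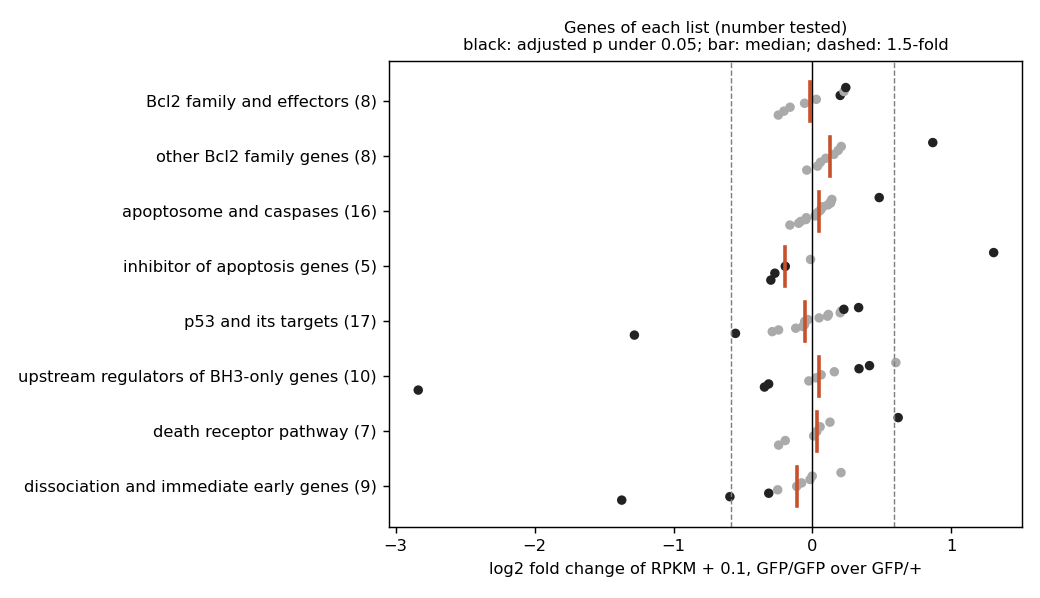
Log2 fold change of RPKM + 0.1 in GFP/GFP over GFP/+ for the 9-gene group (8 tested) and the genes of each list, with the number tested in brackets; each point is a gene, red bars are medians, and dashed lines mark 1.5-fold. Medians lie between -0.20 and 0.13, and points past the dashed lines in black include *Bok*, *Ngfr* and *Birc7* on the right and *Chac1*, *Sesn2* and *Atf3* on the left.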

How the data were processed

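RNA-seq of polyadenylated RNA came from 4 libraries, 2 of each genotype, grouped by GEO's labels. The authors aligned reads to mm10 with TopHat2 2.1.0, counted them on RefSeq exons with featureCounts, scaled libraries by TMM in edgeR 3.6.8, and deposited RPKM. Because whole reads were counted, RPKM values move in steps that depend on exon length and depth, and solving for these gave whole reads for 99.99% of the genes above 0, with lengths of GENCODE vM21 as a guide. Of the solved lengths, 68.3% lay within 5% of the annotated one. For a few genes all reads may be off by a common factor.

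The test was limma 3.58.1 on log2(RPKM + 0.1), for genes averaging 1 RPKM or more in one of the genotypes (lmFit, eBayes with trend, R 4.3.3). The fit was tested on simulated libraries, with a spread between libraries set in advance. There it called 3 of 53 genes changed 1.25-fold, 36 of 48 changed 1.5-fold, 46 of 47 changed 2-fold and 52 of 52 changed 4-fold. It also called 29 of 11773 unchanged genes, a larger share of its calls than the adjusted p threshold of 0.05 allows for. Adjusted p-values near that threshold are therefore to be read with caution. Differences of 1.25-fold were thus mostly missed in the simulation, and a gene that did not pass is not shown to be unchanged. The simulation changed far fewer genes than were called in the data, and its spread was not fitted to them. Its shares of calls therefore need not hold for these data. Fold changes on the scale of log2(RPKM + 0.1) understate those of low genes. The smallest two-sided p of an exact permutation test of 2 libraries against 2 is 0.333. Depth was 11717824 to 18638237 reads. The gene groups were chosen with earlier results of these data known. Named are the 9 genes, every list gene with an adjusted p under 0.05 and the most abundant gene of each list. Some genes of the lists are not reported here. Python 3.11.15 with pandas 2.3.3, scipy 1.17.1 and matplotlib 3.10.9 handled tables and plots. The alternatives are given in the closing section.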

Additional observations from a re-analysis of the deposited data

How the results depend on the processing

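With no filter on RPKM, limma called 0 of the 9 genes, 0 of the apoptosis genes in the 6 lists and 51 genes in all, where the test on filtered genes called 2, 16 and 2374. At an unadjusted p under 0.05 that fit gave 4 of the 9 (*Bcl2l1*, *Bax*, *Pmaip1* and *Apaf1*), 23 list genes and 18% of all genes. On the filtered genes, limma voom called 3 of the 8, 19 list genes and 3251 genes in all (27%). Without a trend in eBayes it called 0 of the 8, 12 list genes and 1633 genes in all, with 4 of the 8 and 31% of all genes at an unadjusted p under 0.05. With each library left out in turn, 0 of the 8 were called (2 to 3 at an unadjusted p under 0.05, beside 23.4% to 29% of all genes), 4 to 10 of the list genes and 619 to 1029 of all genes. In these fits the lone library of a genotype is assumed to vary like the others, and they have fewer samples. *Mcl1* then ran from -0.020 to 0.075 (lowest without the first GFP/GFP library), *Bcl2l11* from -0.14 to 0.031 (highest without the second GFP/GFP library) and *Bnip3l* from -0.026 to 0.099 (lowest without the second GFP/+ library), so their direction is not settled. The other tested genes of the 9, the called list genes and the most abundant gene of each other list kept their direction under each alternative run: pseudocounts of 1 and 0.01, no filter, median ratio scaling, no trend, the block, libraries left out and limma voom. The voom fit with at least 10 reads in all, and the count of genes with at least 20 reads in a library (2326 called), were chosen after seeing the data.

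Same-numbered libraries deviated together only weakly (r = 0.047 across genes). The labels do not say whether the number marks a shared preparation, so a pairing is unknown. With the replicate number as a block, 3 of the 8 genes were called, *Bak1* being added (adjusted p = 0.0343), and 3200 genes in all. Depth limits *Pmaip1*, with 3 to 14 reads per library, most among the 9 genes.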
